A study of Caenorhabditis elegans with 2 samples.

Results

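The genes described here encode molecular chaperones of Caenorhabditis elegans, and they were chosen as the nuclear protein-coding genes whose symbol starts with hsp-, dnj- or cct-. There were 61 of them among 19973 nuclear protein-coding genes, namely 24 hsp genes, 29 dnj genes and 8 cct genes. Binding of EGL-44 was read at each of them from ChIP-seq peak lists, as a peak summit lying between 1000 bp upstream and 200 bp downstream of any annotated transcript start, called the promoter window below. EGL-44 is the worm member of the TEAD family of DNA-binding transcription factors, which bind DNA words related to CATTCC.

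Chaperones bind proteins that are not yet folded or have lost their fold. Hsp70 proteins work in cycles of ATP hydrolysis that J-domain proteins, the products of the dnj genes, start on a given substrate, and exchange factors such as Hsp110 reset them. The cct genes encode the subunits of the chaperonin that folds actin and tubulin in a closed chamber, hsp-60 encodes its mitochondrial relative, and small heat shock proteins hold unfolded proteins without using ATP. The hsp-16 genes are the textbook case of small heat shock genes that are nearly silent until worms are heated, whereas most Hsp70, Hsp90, J-domain and CCT genes are also expressed without stress.

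All samples carried one genotype and one condition. The strain was RW12173, whose CRISPR-made allele st12173 joins GFP to egl-44 and carries unc-119(+) with loxP sites, in a background with unc-119(tm4063) III. Worms were synchronised by starving L1 larvae after bleaching and were collected whole as young adults at 66.5 hours, and chromatin was precipitated with an antibody against GFP in 2 biological replicates. No heated, untagged or egl-44 mutant worms were analysed here, so every comparison below is between genes or regions within these lists, and whole worms do not tell in which tissue a gene was bound.

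The pooled thresholded list, made from both replicates, held 1553 regions, called peaks below. The authors ranked 79828 regions in all, and those that missed their limit on the irreproducible discovery rate (IDR), a measure of how well a rank repeats between inputs, are called weaker regions. The name refers to that limit and not to the signal, and a weaker region can have a higher signal than some peaks. The replicates' own thresholded lists held 769 regions in replicate 1 and 568 in replicate 2. Each region carries the authors' deposited signal, whose scaling is not stated, so signals are set side by side only within one list. No list gives read counts, and the depth behind each region is therefore unknown.

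The stretches below were read from the ce11 genome, as the RefSeq assembly gives it, and are shown because they lie at the strongest peak of a class of chaperone, or at the next one where the first is not printed. Each runs 5′ to 3′ on the strand of the named gene, within 60 bases of the peak summit, and stops where an exon of a protein-coding gene begins. Capitals mark matches to CATTCC, to TTCNNGAA or to GAANNTTC, the last pair being ways to join the units of a heat shock element, the site of the heat shock factor HSF-1. The hsp-90 stretch lies at V:14685704-14685824 (plus strand), hsp-60 at III:1619092-1619212 (plus strand), dnj-19 at V:5505166-5505252 (minus strand) and cct-8 at IV:1094297-1094417 (minus strand).
hsp-90: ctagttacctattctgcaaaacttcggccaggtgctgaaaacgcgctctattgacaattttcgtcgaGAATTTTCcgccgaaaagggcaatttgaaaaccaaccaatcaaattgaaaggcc
hsp-60: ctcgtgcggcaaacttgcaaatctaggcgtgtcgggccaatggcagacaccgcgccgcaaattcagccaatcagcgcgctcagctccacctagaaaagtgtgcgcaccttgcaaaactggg
dnj-19: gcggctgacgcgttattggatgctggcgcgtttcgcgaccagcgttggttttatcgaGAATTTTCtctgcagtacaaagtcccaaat
cct-8: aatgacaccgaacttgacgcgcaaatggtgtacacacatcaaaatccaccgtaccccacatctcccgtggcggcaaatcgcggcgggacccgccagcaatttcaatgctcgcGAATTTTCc
The hsp-90, dnj-19 and cct-8 stretches each held GAATTTTC, and the hsp-60 stretch held none of the words searched. The printed stretches are not typical in this respect, since these were the 3 of all 14 chaperone peaks with GAATTTTC within 100 bp of the summit. The stretch of dnj-28, the strongest J-domain peak, is not printed, and its peak held neither of the heat shock words. For contrast, the whole interval between the divergent hsp-16.2 and hsp-16.41 genes, V:1804958-1805177, is given on the plus strand, that of hsp-16.41. It was added after its values were seen.
hsp-16.2 and hsp-16.41: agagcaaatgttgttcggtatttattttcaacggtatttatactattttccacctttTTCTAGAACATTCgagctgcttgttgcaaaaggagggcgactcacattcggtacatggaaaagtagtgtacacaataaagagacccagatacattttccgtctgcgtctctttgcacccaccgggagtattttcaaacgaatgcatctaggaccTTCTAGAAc
This interval held 2 marked stretches, one of which joins 3 units of a heat shock element, but its summit at V:1805126 belonged to a weaker region and not to a peak.

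A pooled peak stood in the promoter window of 14 of the 61 chaperone genes, or 22.95%, against 805 of all 19973 genes, or 4.03%. The 14 were the cytosolic hsp-1, hsp-90 and hsp-110, the organelle genes hsp-3 and hsp-60, the small heat shock gene hsp-16.20, the J-domain genes dnj-9, dnj-13, dnj-14, dnj-19, dnj-20 and dnj-28, and the chaperonin genes cct-7 and cct-8. All 14 were also in the conservative list, where 3.8% of all genes had a peak. Replicate 1 on its own had a peak at 11 chaperone genes (18.0%), against 2.29% of all genes, and replicate 2 on its own at 8 (13.1%), against 1.47% of all genes. The symbols alone chose the members, yet the families were picked with earlier results of these data known, and no test was run on these shares.

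A high share of peaks was not a property of chaperone genes alone. Among 39 other genes of protein folding and its stress pathways, 10 (25.6%) had a pooled promoter peak. The ribosomal protein genes, named rpl- and rps-, had one at 23 of 78 (29.5%). The proteasome subunit genes had one at 2 of 33 (6.06%). Chaperone genes thus lay between the proteasome and the ribosomal protein genes.

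**Figure D1:**
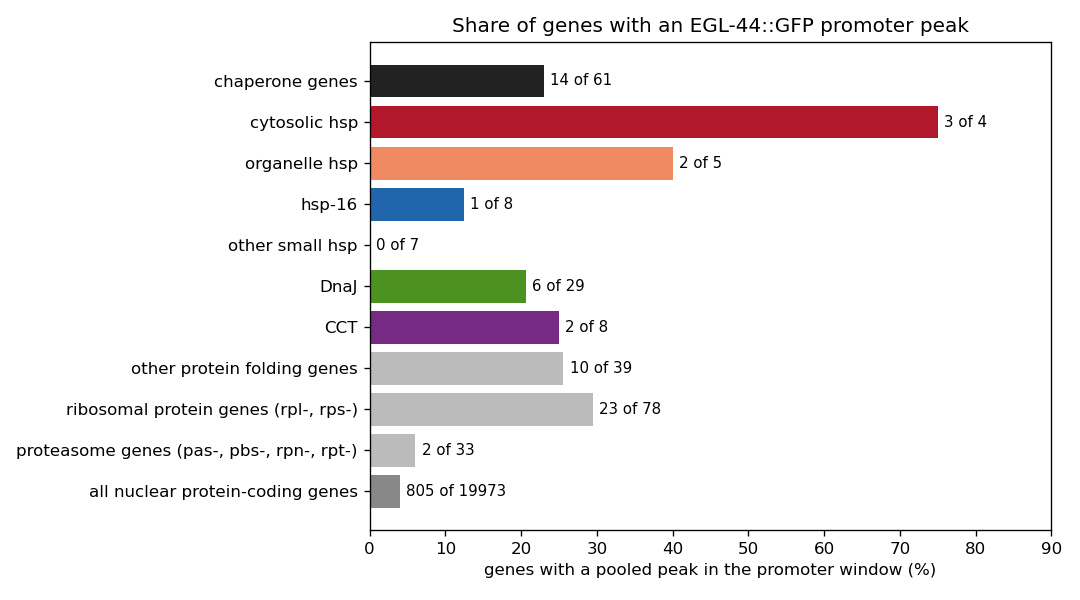
Share of genes (x axis, percent) with a pooled EGL-44::GFP peak in the promoter window, for all chaperone genes, their 6 classes, 3 other gene lists and all nuclear protein-coding genes, with counts beside the bars. The cytosolic class has the longest bar (3 of 4), the small heat shock genes outside hsp-16 have none (0 of 7), and all genes stand at 4.03%.

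The cytosolic class had the highest share of the 6 classes, 3 of 4 genes. The gene hsp-90, the only cytosolic Hsp90 of the worm, had a pooled signal of 104. Its own-list signals were 51.7 in replicate 1 and 57.3 in replicate 2, and it passed the threshold in both. Its peak at V:14685609-14685918 sat in an intron of the gene, 846 bp inside the outermost start and 396 bp upstream of the second annotated start.

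The gene hsp-110, which encodes the Hsp110-type exchange factor of Hsp70, had a pooled signal of 96.7 at III:8447016-8447325, 262 bp upstream of its start. Its signal was 41.6 in replicate 1 and 55.9 in replicate 2, and it passed the threshold in replicate 2 only. The gene hsp-1, the constitutive Hsp70 (Hsc70), had a pooled signal of 89.2 at IV:17278296-17278605, 508 bp upstream of its start. Its signal was 59.1 in replicate 1 and 33.4 in replicate 2, and it passed in replicate 1 only. Thus hsp-90 was the sole gene of this class to pass in both replicates on their own.

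The fourth gene of the class, hsp-70, encodes a heat-inducible Hsp70. Its strongest region had a pooled signal of 37.3 and ranked 10747 among the 79828 ranked regions, far below the peaks of the other three. The 3 constitutive genes of this class thus had a peak and the inducible one did not, which is too few genes to compare by a test. The division did not hold for Hsp70 genes named without the hsp- prefix: the heat-inducible pair F44E5.4 and F44E5.5 had a peak with a signal of 246, described further on.

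In the endoplasmic reticulum, the worm has a pair of BiP-type Hsp70 genes, hsp-3 and hsp-4, and only hsp-3 had a peak. Its pooled signal was 153 at X:6092030-6092339, 61 bp upstream of the start, the shortest distance of the 14. It passed in both replicates, with a signal of 104 in replicate 1 and 44.1 in replicate 2. The strongest region of hsp-4, the member known for strong induction by unfolded proteins in the reticulum, reached a pooled signal of 47.3, with 33.1 in replicate 1 and 23.3 in replicate 2. The difference between the BiP genes went the same way in both replicates.

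Among mitochondrial chaperones, hsp-60 had a pooled signal of 159 at III:1619068-1619183, 590 bp upstream of its start, and ranked 109 in the pooled list. It passed in both replicates, with a signal of 97.4 in replicate 1 and 71.8 in replicate 2. The mitochondrial Hsp70 gene hsp-6 had the highest signal of any chaperone gene without a peak, 54.3, with 25.9 in replicate 1 and 30.1 in replicate 2. The mitochondrial Hsp90-type gene hsp-75 had a strongest region of 30.5. Both hsp-6 and hsp-60 are widely used reporters of mitochondrial protein stress, and here the chaperonin gene had a peak while the Hsp70 gene had a weaker region.

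**Figure D2:**
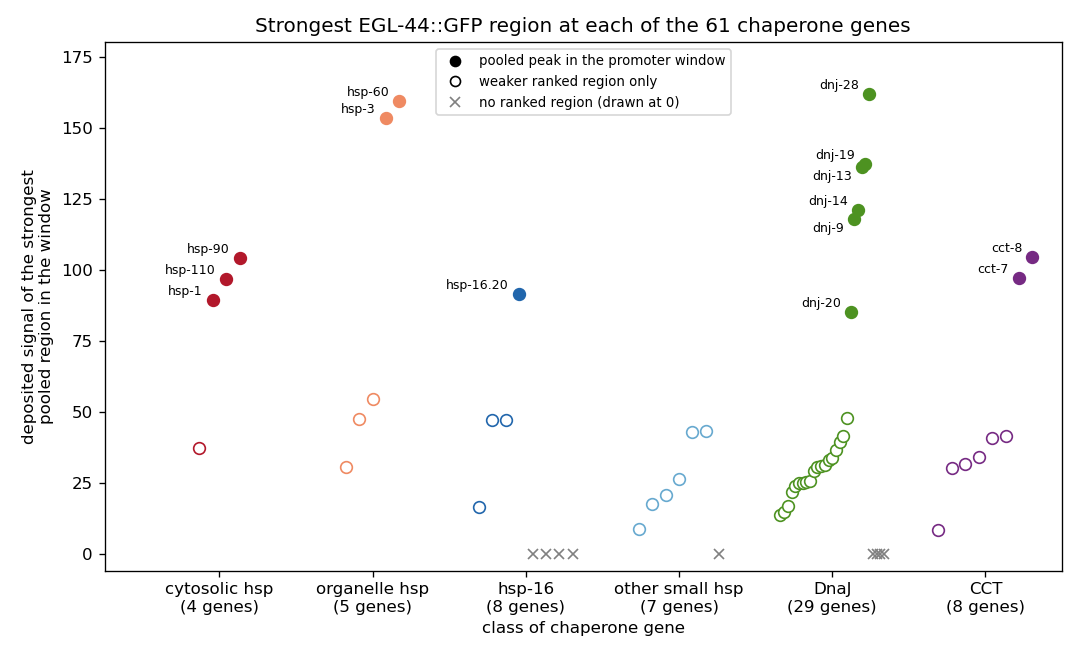
Deposited signal of the strongest pooled region in the promoter window (y axis) for each of the 61 chaperone genes, by class; filled points are peaks, open points weaker regions, and crosses genes with no ranked region. The 14 peaks lie between 85.2 and 162, and the 38 genes with weaker regions between 8.43 and 54.3.

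The J-domain genes, which form the largest family, had a peak at 6 of 29 (20.7%). The strongest chaperone peak of all was that of dnj-28 at I:2996207-2996516, with a pooled signal of 162 and rank 101 in the pooled list. Its signal was 118 in replicate 1 and 43.8 in replicate 2 and it passed in both. The gene dnj-19, which encodes a J-domain protein of the DnaJ-like class A, had a pooled signal of 137 at V:5505071-5505380, with 66.0 in replicate 1 and 73.5 in replicate 2, and passed in both.

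The gene dnj-13 encodes a cytosolic class B protein, the worm relative of human DNAJB1 and a partner of the constitutive Hsp70. Its peak at II:11545311-11545620 had a pooled signal of 136, with 79.0 in replicate 1 and 53.6 in replicate 2, and passed in both. Together with dnj-19 and dnj-28 it made 3 J-domain genes that passed in both replicates.

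The other J-domain peaks passed in replicate 1 only. The gene dnj-14, the cysteine string protein of synaptic vesicles, had a pooled signal of 121, with 81.2 in replicate 1 and 39.4 in replicate 2. The gene dnj-9 had a pooled signal of 118, with 64.5 in replicate 1 and 60.1 in replicate 2. The gene dnj-20, whose product is of the type that serves BiP in the endoplasmic reticulum, had the weakest peak of the 14, with a pooled signal of 85.2, 58.1 in replicate 1 and 37.4 in replicate 2. Its summit lay in its own intron, 4592 bp inside the outermost start and 414 bp upstream of an internal start.

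Of the 23 J-domain genes without a peak, 19 had weaker regions and dnj-3, dnj-23, dnj-26 and dnj-27 had no pooled ranked region. The conservative ranked list, also made from both replicates, did hold a region at dnj-23, with a signal of 35.2. Replicate 2 on its own ranked regions at dnj-3, the strongest with 11.5. The gene dnj-27 encodes a J-domain protein of the endoplasmic reticulum of the ERdj5 type. The highest of the weaker regions belonged to dnj-10, a mitochondrial J-domain gene, with a pooled signal of 47.9. The class A gene dnj-12 reached 31.2, against 137 at dnj-19 of the same class.

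The 8 chaperonin subunits assemble into one ring in equal number, but their genes did not share a pattern of binding. A peak stood at cct-8, with a pooled signal of 104 at IV:1094202-1094511, and at cct-7, with a pooled signal of 96.9 at V:1871795-1872104. The cct-8 signal was 65.1 in replicate 1 and 41.2 in replicate 2 and passed in replicate 1 only, whereas cct-7 had 45.7 in replicate 1 and 45.2 in replicate 2 and passed in replicate 2 only. No chaperonin gene thus passed in both replicates on their own.

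The other 6 chaperonin genes had weaker regions. Their strongest pooled signals were 41.5 at cct-4, 40.6 at cct-2, 34.1 at cct-1, 31.6 at cct-5, 30.3 at cct-6 and 8.43 at cct-3. In the pooled list the gap between the weaker of the 2 peaks and the strongest of these regions was wide, and no chaperonin gene lay between them. The order differed in the replicates' own lists. In replicate 1 cct-2 reached 35.9, against 45.7 at cct-7, and cct-3 had 20.9. In replicate 2 the highest of these 6 genes was cct-3 with 16.6, against 41.2 at cct-8.

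The small heat shock genes had 1 peak among 15 genes (6.67%), against 4.03% of all genes, and the summit of that peak lay inside another annotated gene. The gene hsp-16.20 had a pooled signal of 91.4 at V:14463068-14463377, with 48.7 in replicate 1 and 38.5 in replicate 2, and passed in neither replicate on its own. Its summit lay 115 bp downstream of the start, in the 5′ untranslated region, and inside the annotated small nuclear RNA gene F08H9.10. It was the one chaperone peak within 300 bp of the start of a gene for a tRNA, small nucleolar, small nuclear or ribosomal RNA, against 14.7% of all promoter peaks. Reads from either gene's start cannot be told apart here.

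The remaining 7 hsp-16 genes had no peak in the window. The genes hsp-16.2 and hsp-16.41 share the interval printed above, and its strongest region, V:1804971-1805280, had a pooled signal of 47.1. In replicate 1 the strongest region had a signal of 22.2 in the hsp-16.2 window and 24.8 in the hsp-16.41 window. The region of 24.8 lay outside the hsp-16.2 window, so it is not the pooled region named here. In replicate 2 the strongest region had 25.5 in both windows. The gene hsp-16.21 reached a pooled signal of 16.35. The genes hsp-16.1, hsp-16.11, hsp-16.48 and hsp-16.49 had no pooled ranked region with its summit in the window. In the replicates' own lists a region was ranked in the hsp-16.11 window, with a signal of 31.0 in replicate 1 and 6.09 in replicate 2.

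Those 4 genes are an inverted duplication, and their promoter windows are almost wholly repeated sequence. Words of 50 bases were counted in the window of the outermost start. Of these, 100% at hsp-16.48 and hsp-16.49, 96.4% at hsp-16.1 and 93.1% at hsp-16.11 occurred more than once in the genome. Of the 61 chaperone genes, 50 had no such word, the median over all genes was 0%, and 10.4% of all genes were above 10%. The part of repeated sequence in the absence of regions at these 4 genes was not tested. The hsp-16.2 and hsp-16.41 windows held no repeated word and had a weaker region.

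**Figure D3:**
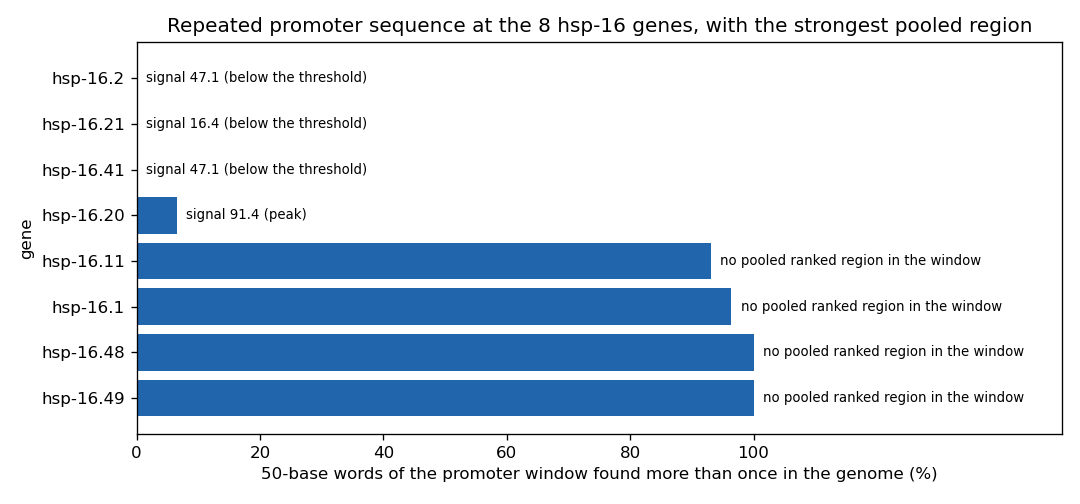
Percent of 50-base words in the promoter window of the outermost start that occur more than once in the genome (x axis), for the 8 hsp-16 genes. The signal of the strongest pooled region is written beside each bar. The 4 genes without a ranked region have bars of 93.1% or more, and the gene with a peak, hsp-16.20, has 6.51%.

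Peaks did stand near that cluster, with their summits outside the windows. One had a signal of 100 at V:9086701-9087010, 926 bp downstream of the start of hsp-16.1 and 165 bp from the start of the small nuclear RNA gene T27E4.11. Another had a signal of 65.3 at V:9088840-9089149, 771 bp downstream of the start of hsp-16.49. Its summit also lay 1082 bp upstream of the start of hsp-16.11, and part of this peak reached into the hsp-16.11 window. The peak of 100 passed in replicate 1 only, and that of 65.3 passed in neither replicate on its own. Both lay outside any protein-coding gene. At both hsp-16 loci with peaks, an annotated small nuclear RNA gene was thus close to a summit.

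The 7 other small heat shock genes had no peak, and their strongest regions ranged downward from 43.3 at hsp-43, with hsp-25 close behind it. The gene hsp-12.6 had 8.82, and hsp-12.3 had no ranked region in the window. A peak of 116 at IV:9444396-9444705 lay 956 bp downstream of the hsp-12.3 start and so outside the window. An overlapping peak of 11.4 at IV:9444596-9444905 lay 756 bp downstream, also outside it. Both summits were intergenic, and the start nearest to the second was that of F38E11.24.

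Below the threshold the classes differed less. A ranked region of any strength stood in the window of 52 of the 61 chaperone genes (85.2%), against 63.8% of all genes. By class these were 4 of 4 cytosolic, 5 of 5 organelle, 4 of 8 hsp-16, 6 of 7 other small heat shock, 25 of 29 J-domain and 8 of 8 chaperonin genes. Replicate 1 on its own ranked a region at 48 of them (78.7%), against 51.0% of all genes, and replicate 2 at 42 (68.9%), against 47.1% of all genes. Over the 38 chaperone genes with weaker regions only, the median of the strongest signals was 30.8, against 27.5 over 11937 such genes.

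The 14 chaperone peaks had a median pooled signal of 111, against 82.9 over all 687 peaks in promoter windows. In their own lists 6 of the 14 (42.9%) passed in both replicates, against 24.2% of all promoter peaks. Another 5 passed in replicate 1 only, 2 in replicate 2 only and 1 in neither. The pooled signal and the passing of each replicate's threshold come from the same libraries, so the higher median and the higher share are not separate observations.

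**Figure D4:**
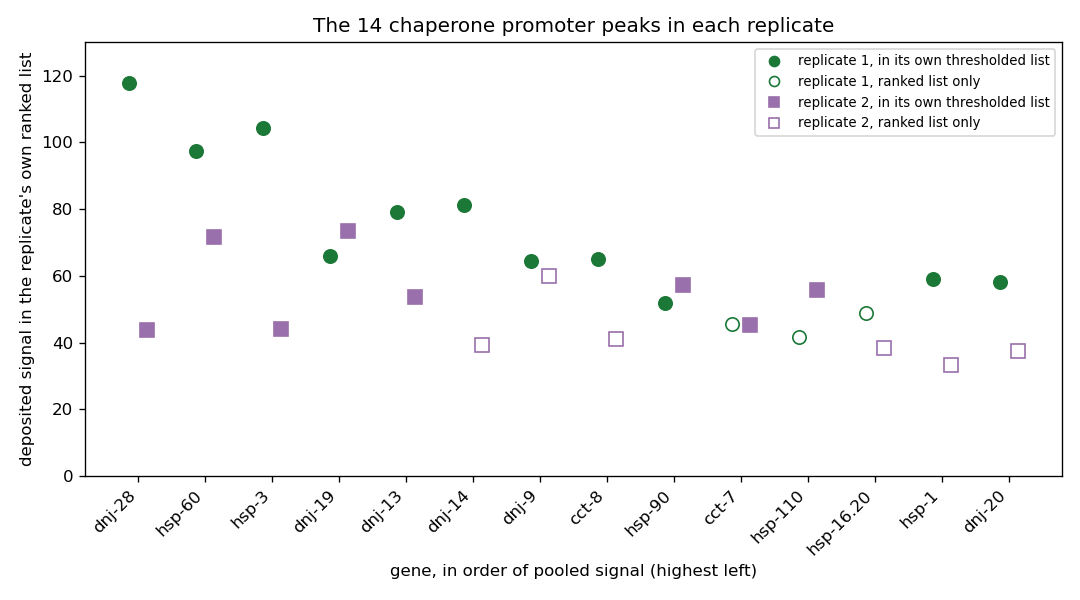
Deposited signal of the 14 chaperone promoter peaks in the ranked list of each replicate (y axis), in order of pooled signal from left to right; filled marks passed the threshold of that replicate's own list and open marks did not. Filled marks of both kinds stand at 6 genes (dnj-28, hsp-60, hsp-3, dnj-19, dnj-13 and hsp-90), and at hsp-16.20 both marks are open.

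Most chaperone peaks were in reach of a second coding gene. Another protein-coding start was in reach of the same summit at 9 of the 14, or 64.3%, against 25.6% of all promoter peaks. In all 9 the other gene ran in the opposite direction, and in 7 of the 9 its start was nearer to the summit than that of the chaperone gene. Of the 9 summits, 7 were intergenic, that of hsp-90 lay in its own intron and that of dnj-13 in an intron of dhgd-1. Such a peak cannot be credited to one gene of the pair. When each summit was given only to the nearest protein-coding start, 7 chaperone genes (11.5%) had a peak, against 3.04% of all genes. When starts of non-coding genes competed as well, 4 chaperone genes (6.56%) had one, against 2.15% of all genes. The share of chaperone genes thus rests in large part on shared summits.

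Some of these partners also belong to protein homeostasis. The gene beside hsp-60, Y22D7AL.10, is annotated by RefSeq as the 10 kDa mitochondrial heat shock protein, which is the lid of the hsp-60 chaperonin. Its start was 813 bp from that of hsp-60, and the shared summit lay 590 bp upstream of hsp-60, against 223 bp upstream of Y22D7AL.10. The partner of hsp-110 was rpn-3, a subunit of the proteasome lid, with its start 182 bp from the summit. That summit thus also supplied 1 of the 2 proteasome genes with a peak.

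The partners of the other shared peaks were of mixed kinds. The dnj-19 summit lay 369 bp upstream of dnj-19, against 27 bp upstream of nhr-47, a nuclear hormone receptor gene. The dnj-14 summit lay 308 bp upstream of dnj-14, against 223 bp upstream of glit-1, which encodes a protein related to neuroligins. The cct-8 summit lay 184 bp from Y55F3AR.2, the cct-7 summit 143 bp from T10B5.4 and the hsp-90 summit 279 bp from C47E8.4. The chaperone gene was the nearer one at dnj-13, whose partner F54D5.9 started 638 bp from the summit, and at dnj-28, whose partner supr-1 started 448 bp away.

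**Figure D5:**
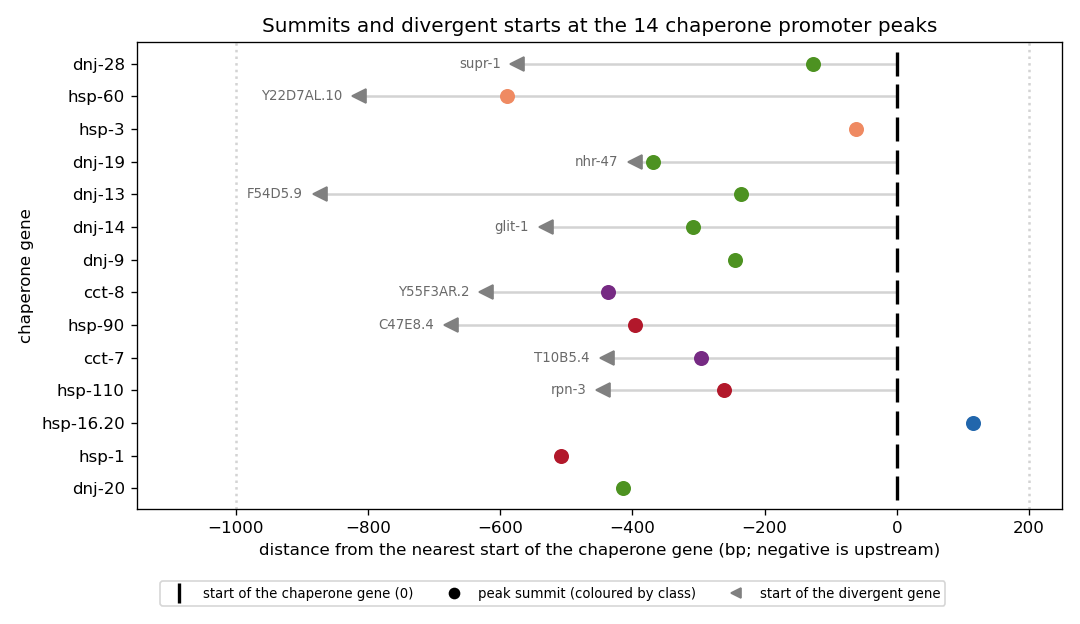
Position of each of the 14 summits relative to the nearest start of its chaperone gene (x axis, bp, negative is upstream; dotted lines mark the window), with the start of any divergent gene in reach. At 13 of the 14 genes the summit lies upstream, and at 7 of the 9 genes with a divergent partner it lies nearer to the partner.

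Divergent arrangement was common among chaperone genes as such. Positions were measured from the outermost start. Genes with a coding gene on the same strand within 500 bp upstream were set apart first, whether or not they also had a divergent one. Of the 61, 28 (45.9%) were outside that group and had a divergent coding gene within 1000 bp, against 17.5% of all genes. Both shares may thus understate how common divergent neighbours are, since 19.7% of the chaperone genes and 18.1% of all genes were set apart. Of these 28, 9 had a peak (32.1%), against 7.83% of all genes so arranged. These 9 are not quite the genes with a shared summit: dnj-20 is among them, though its peak lies at an internal start, and hsp-90 is not, because its partner is divergent only from its second start. Of the 12 that instead had a coding gene on the same strand within 500 bp upstream, 2 had a peak (16.7%), against 3.21% of such genes. Of the 21 with neither, 3 had a peak (14.3%), against 3.23%. The share was above that of all genes in each arrangement, while it was highest in both sets for divergent pairs.

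Annotated non-coding transcripts were close to many of the summits as well. The nearest start of any gene was that of an annotated ncRNA at 6 of the 14, namely dnj-13, dnj-14, cct-7, hsp-110, hsp-16.20 and hsp-1, or 42.9%, against 14.7% of all promoter peaks. It was the chaperone gene's own at 4, which were dnj-28, hsp-3, dnj-9 and dnj-20. Of the 14 summits, 10 were intergenic with respect to coding genes, 3 lay in introns and 1 in a 5′ untranslated region. The third intronic summit, that of dnj-13, lay in an intron of the neighbouring gene dhgd-1.

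Summits were mostly upstream of the start. They lay upstream of the chaperone gene's own nearest start at 13 of the 14 genes, with a median position of -302 bp. Over all promoter peaks, 88.5% lay upstream of the nearest coding start of any gene in reach, with a median of -256 bp. These medians are not measured alike and cannot be compared, since at 7 chaperone summits the partner gene's start was the nearer one. A few chaperone genes had further pooled peaks within their own coding exons, outside the window. These had a signal of 74.2 at hsp-3, 813 bp downstream of a start, 64.4 at hsp-110, 658 bp downstream, and 61.9 at hsp-1, 505 bp downstream. All 3 of these genes also had a promoter peak, so that hsp-1, hsp-3 and hsp-110 each carried a peak before and inside the gene.

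The DNA word of TEAD proteins, CATTCC on either strand within 100 bp of the summit, was in 2 of the 14 chaperone peaks, dnj-13 and dnj-14, or 14.3%. It was in 7.57% of all promoter peaks and in 10.6% of weaker regions. Most chaperone peaks thus did not hold these letters, which says only that the word is not in this stretch. The mean GC content of the same 201 bases was 46.8% ± 7.22 (SD, n = 14 peaks), against 46.0% in promoter peaks and 40.0% in weaker regions.

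Heat shock element words were spread unevenly. The word GAANNTTC, which reads the same on both strands, was in 6 of the 14 chaperone peaks (42.9%), those of dnj-19, dnj-13, cct-8, hsp-90, hsp-110 and hsp-1, against 8.01% of all promoter peaks and 13.2% of weaker regions. The word TTCNNGAA, also the same on both strands, was in 3 (21.4%), those of hsp-90, cct-7 and hsp-110, against 9.46% of promoter peaks. GAATTTTC, a case of GAANNTTC, was counted after it had been seen in the printed stretches, and stood in 3 chaperone peaks against 2.91% of all promoter peaks. Only CATTCC and TTCNNGAA were planned for this search, and the other words, GAANNTTC among them, were added to it. TGACGTG, a word bound by factors of the unfolded protein response, was in 2, dnj-28 and hsp-3, against 3.06% of promoter peaks. GAGAGA, a repeat common in worm promoters, was in 4 (28.6%), against 32.3% of promoter peaks. These counts depended on the distance searched. Within 50 bp of the summit GAANNTTC was in 4 chaperone peaks (28.6%, against 4.08% of promoter peaks), TTCNNGAA in 1 (7.14%, against 4.37%), GAATTTTC in 2 (14.3%, against 1.75%), TGACGTG in 0 (against 1.02%) and GAGAGA in 0 (against 19.5%). Within 200 bp GAANNTTC was in 8 (57.1%, against 20.2%), TTCNNGAA in 7 (against 18.9%), GAATTTTC in 5 (35.7%, against 7.86%), TGACGTG in 2 (14.3%, against 5.09%) and GAGAGA in 7 (against 44.3%).

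The three-unit heat shock element was also searched from 1000 bp upstream to 200 bp downstream of each gene's outermost start, leaving other starts aside. It was in 15 of the 61 chaperone genes (24.6%), against 7.68% of all genes. By class it was in 4 of 4 cytosolic, 2 of 5 organelle, 6 of 8 hsp-16, 0 of 7 other small heat shock, 3 of 29 J-domain and 0 of 8 chaperonin genes. The 5 of these genes that also had a peak were hsp-1, hsp-90, hsp-110, hsp-60 and dnj-13. The hsp-90 summit lay 846 bp inside the outermost start and so outside the stretch searched. The 6 hsp-16 genes with the element, hsp-16.1, hsp-16.2, hsp-16.11, hsp-16.41, hsp-16.48 and hsp-16.49, were all without a peak, and hsp-16.20, the one with a peak, did not hold it. Only 4.03% of all genes had a peak, so 6 genes without one say little about the element. Among these 6, hsp-16.1, hsp-16.11, hsp-16.48 and hsp-16.49 also have the repeated windows described above. Within 100 bp of a summit, the three-unit element stood at 1 of the 14 (7.14%), hsp-110, against 1.75% of promoter peaks, and within 200 bp it stood at 3 (21.4%), against 2.77%.

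Among the other genes of protein folding, the strongest peak had a signal of 246 at II:11759423-11759556, between the divergent Hsp70 genes F44E5.4 and F44E5.5, and it passed in both replicates. These are heat-inducible Hsp70 genes whose names lack the hsp- prefix, so they are not among the 61. The other peaks of this list were at atf-6 with a signal of 101 and xbp-1 with 99.6, both regulators of the unfolded protein response, at the endoplasmic Hsp90 gene enpl-1 with 84.1 and at the protein disulfide isomerase gene pdi-2 with 83.1. The co-chaperone genes unc-23 and bag-1, both of the BAG family that acts on Hsp70, had 80.6 and 78.1, and the mitochondrial stress regulator atfs-1 and protease clpp-1 had 72.9 and 68.6. Of these only unc-23 passed in both replicates beside the Hsp70 pair, and atfs-1 passed in neither. The gene pfd-1 had a ranked region with a signal of 77.9 that was not a peak, though its signal was above those of the atfs-1 and clpp-1 peaks. The heat shock factor gene hsf-1 itself had a weaker region of 41.8.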

How the data were processed

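ChIP-seq peak lists of 2 biological replicates were used. Each list gives a signal as the authors deposited it, in units the files do not state, and the ranked lists give the deposited −log10 of the global IDR. The pooled lists come from both replicates, and each own list from one. In the pooled ranked list 1576 regions had an IDR of 0.01 or less, and the deposited pooled list held 1553. The sources used here name neither aligner nor peak caller. The ranked lists also hold 8 input columns that name no replicate, and these were left out. Read depth is unknown, so no interval is given.

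Coordinates are of assembly ce11. Transcript starts were those of Ensembl release 115, and RefSeq gave the symbols, by sequence name (46040 of 46926 genes matched). A gene was counted when a summit lay in its promoter window, and window code was tested on planted summits. Regions of 2 lists were shared when they overlapped by at least 1 bp. For genes without a peak, each replicate signal is that of its strongest region in the window, which need not overlap the pooled one. Words were searched on both strands within 100 bp of a summit. The members, classes and lists were chosen with earlier results of these data known. Named were all members with a peak, all hsp-16 and cct genes, the strongest member without a peak in each class, and genes sharing a summit. Others, such as dnj-12, hsp-4 and hsp-75, were added after their values were seen. Every count is a description, with no test. Python 3.11.15, pandas 2.3.3 and NumPy 2.4.6 were used.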

Additional observations from a re-analysis of the deposited data

How the results depend on the processing

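Of 82 recounts under other settings, 55 stayed within 1.5 times the main count. With the nearest start of any gene, coding or not, 4 chaperone genes (6.56%) kept a peak, against 430 of all genes (2.15%): 1 hsp, 3 DnaJ and 0 CCT genes, with 0 small heat shock genes. With the nearest protein-coding start, a setting added after the data were seen, 7 chaperone genes (11.5%) did, against 607 of all genes (3.04%), among them 3 hsp and 0 CCT genes. Lists of one replicate each gave 8 to 11 chaperone genes, 3 to 6 DnaJ genes, 1 CCT gene, 0 small heat shock genes, 4 hsp genes, 3 to 9 other folding genes and 294 to 457 of all genes, and 42 to 48 chaperone genes with a ranked region. An IDR of 0.001 or less left 12 chaperone genes and 346 of all genes, 4 other folding genes and 0 small heat shock genes. A window of 500 bp upstream and 100 bp downstream left 3 hsp and 0 small heat shock genes, against 571 of all genes (2.86%). One of 2000 and 500 bp gave 4 small heat shock genes, adding hsp-16.1, hsp-16.11 and hsp-16.48, against 1168 of all genes (5.85%). Any base of the peak in the window gave 2 small heat shock genes, adding hsp-16.11, against 880 of all genes (4.41%). Leaving out peaks at small RNA genes gave 0, against 697 of all genes (3.49%). CATTCC within 50 bp of the summit was in 1 chaperone peak (7.14%), against 3.35% of promoter peaks. The other words at 50 and 200 bp are given above. A paired analysis does not apply to a single group.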
